A study of Saccharomyces cerevisiae with 12 samples.

Results

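The genes described here are the ATG genes of Saccharomyces cerevisiae, which encode the machinery of autophagy. They were chosen by name alone, as every gene whose symbol on the array platform is ATG followed by a number. This gave 34 genes out of 5444, each with a single probe set. ATG6 and ATG24 are listed under the symbols VPS30 and SNX4 and are described with their partners below. For all 34 genes the platform symbol equalled the symbol in the RefSeq gene annotation.

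In autophagy a cup-shaped membrane forms beside the vacuole, closes around cytoplasm or a marked cargo, and fuses with the vacuole, where its content is degraded. The Atg1 kinase complex starts the process, Atg9 vesicles and a phosphatidylinositol 3-kinase build the membrane, and conjugation systems attach the ubiquitin-like protein Atg8 to it. Receptor proteins tie particular cargo, such as mitochondria, peroxisomes or endoplasmic reticulum, to Atg8. Yeast is known for inducing the process when nitrogen or carbon runs short, and the kinase complex TORC1 holds it back in growing cells.

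The strain was VTT C-10883, a haploid of mating type alpha in the CEN.PK background that carries XYL1 and XYL2 of Scheffersomyces stipitis and overexpresses XKS1. Every sample came from this 1 strain, grown anaerobically in batch, where glucose was consumed before xylose. Cells were taken 1 hour after HMF (3.9 g/L) and furfural (1.2 g/L) were pulsed into the glucose phase. Unpulsed cells of that phase were the glucose control. The xylose phase gave cells taken 1 hour after an identical pulse and unpulsed cells (xylose control). Each condition had 3 arrays from 3 bioreactors. Whether pulse and control arrays of a phase came from the same bioreactors is not stated. The methods name both samples drawn before the pulse and cultivations without a pulse as reference, and the labels say only control. For controls drawn before the pulse, its effect and that of 1 hour of cultivation cannot be told apart. The methods describe the pulse in the xylose phase as a separate experiment, and the paper states that cells did not grow in that phase. Between the phases, carbon source, growth, time in culture and experiment cannot be told apart. The values are log2 expression on 12 Affymetrix arrays, made by RMA (background correction, quantile normalization and a summary per probe set). They are relative to the other transcripts of an array, and total RNA per cell was not measured.

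Array medians lay between 9.683 and 9.741 and lower quartiles between 8.097 and 8.335, and pairs of arrays within a condition had a Pearson r of 0.992 to 0.998 across probe sets, which are not independent replicates. As a check of the mating type, the 5 genes specific to a cells had group means of 2.42 to 6.07. The 4 genes specific to alpha cells had 9.78 to 13.50 in the glucose phase and 7.73 to 9.89 in the xylose phase. All 4 were lower in the xylose control than in the glucose control (log2 fold changes of -3.46 to -4.16). After the pulse in the glucose phase, MF(ALPHA)2, SAG1 and STE3 were also lower (-3.11, -1.45 and -1.15), while MF(ALPHA)1 had 0.15. After the pulse in the xylose phase the 4 genes had -1.03 (SAG1) to 0.50 (STE3). The part of these shifts in the results was not tested. Of the 34 ATG genes, 10 ranked in the lowest 25% of probe sets by mean (ATG4, ATG7, ATG10, ATG14, ATG15, ATG16, ATG17, ATG23, ATG29 and ATG39). No detection calls entered the analysis, and a fold change of a gene that is dim in either condition is therefore only approximate. Precision rests on 3 arrays per condition.

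A gene was called higher or lower where limma's Benjamini-Hochberg adjusted p over all 5489 probe sets was under 0.01 and the log2 fold change was above 1 or below -1, which is a 2-fold change. After the pulse in the glucose phase, 9 of the 34 ATG genes rose and none fell, where 11.6% of all probe sets rose and 9.55% fell. After the pulse in the xylose phase, 7 fell and 1 rose, where 8.38% of all probe sets fell and 11.8% rose. Over the 34 genes the log2 fold change had a median of 0.67 in the glucose phase, beside 0.03 over all probe sets, and of -0.54 in the xylose phase, beside -0.08 over all probe sets. It was above 0 for 29 genes in the glucose phase and 8 in the xylose phase, beside 51.8% and 45.1% of all probe sets. With no limit on the fold change, 26 genes passed the adjusted p in the glucose phase (25 higher, 1 lower) and 23 in the xylose phase (3 higher, 20 lower), where 57.7% and 60.8% of all probe sets did. The pulse responses of the phases use different arrays, and 22 of the 34 genes had a positive log2 fold change in the glucose phase and a negative one in the xylose phase. Another 7 were positive in both, 4 were negative in both, and ATG41 was negative in the glucose phase and positive in the xylose phase. Shares of all probe sets with these pairs of signs were not counted, so the 4 counts have no background beside them.

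**Figure D1:**
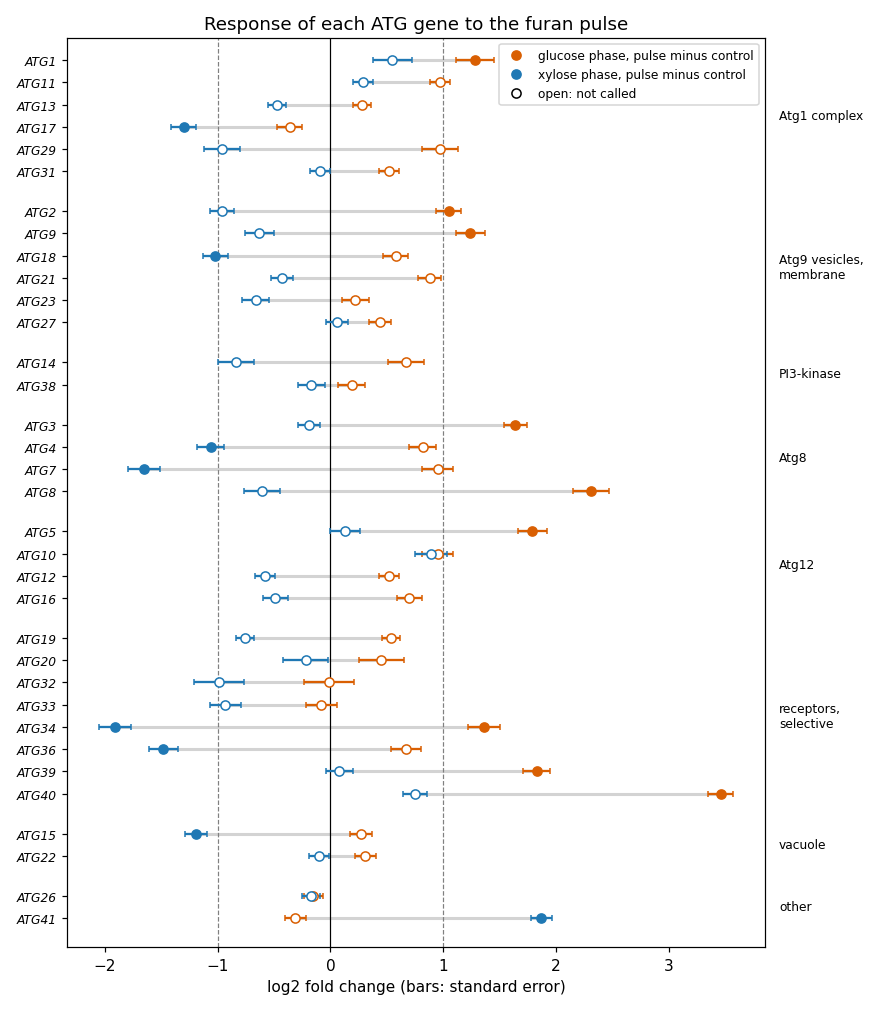
The horizontal axis gives the log2 fold change of pulse minus control for each of the 34 ATG genes (rows, grouped by role) in the glucose phase (orange) and in the xylose phase (blue), bars are standard errors, and filled points were called. The orange points of 29 genes lie right of 0 and the blue points of 26 genes lie left of it, with ATG40 farthest right at 3.46 and ATG34 farthest left at -1.91.

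The difference between the responses was tested as a contrast of its own, the pulse response in the xylose phase minus that in the glucose phase. For 19 of the 34 genes the response was lower in the xylose phase and for 1 it was higher, where 19.9% of all probe sets were called lower and 19.0% higher. The log2 difference was above 0 for 1 of the 34 genes, beside 44.8% of all probe sets, and its median was -1.24, beside -0.13 over all probe sets. Without the pulse, 21 ATG genes were higher in the xylose control than in the glucose control and 1 was lower, where 27.8% of all probe sets were higher and 27.2% lower. Between the controls the log2 fold change was above 0 for 31 genes, beside 52.2% of all probe sets, with a median of 1.80, beside 0.09 over all probe sets. The comparisons share arrays: the xylose control enters its pulse comparison, the difference and the comparison of controls. The glucose control likewise enters its own pulse comparison, the difference and the comparison of controls, so these results are not separate.

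**Figure D2:**
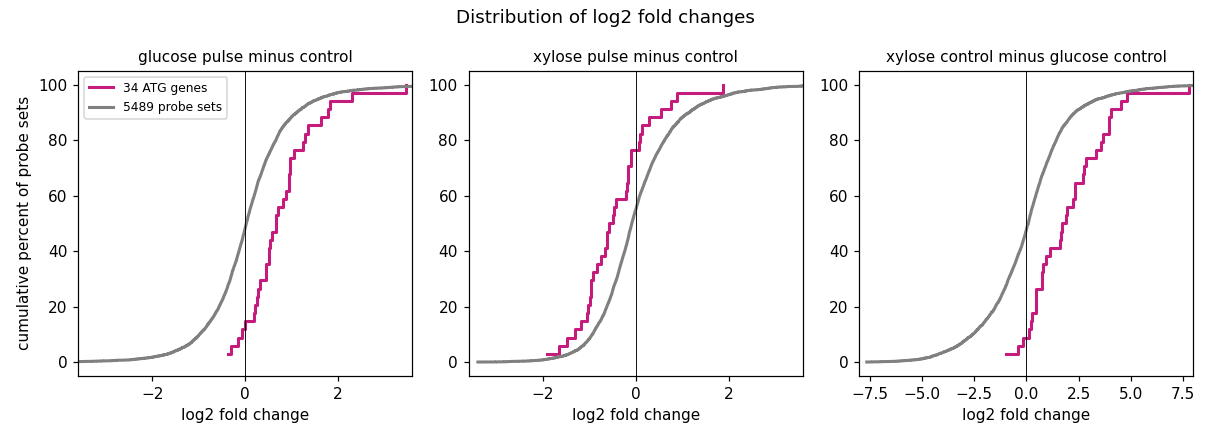
Each panel gives the cumulative percent of probe sets (vertical axis) up to a log2 fold change (horizontal axis, ends trimmed) for the 34 ATG genes (pink) and all 5489 probe sets tested (grey). The pink curve lies right of the grey one in the glucose phase (medians 0.67 and 0.03) and between the controls (1.80 and 0.09), and left of it over most of its course in the xylose phase (-0.54 and -0.08).

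On single arrays the median over the 34 genes was 8.80, 8.78 and 8.86 in the glucose pulse, against 8.10, 8.39 and 8.14 in the glucose control. It was 9.83, 9.89 and 10.05 in the xylose pulse, against 10.48, 10.50 and 10.51 in the xylose control. The 4 conditions thus did not overlap in this median. Across the 4 conditions, 22 of the 34 genes had their highest mean in the xylose control, 7 in the glucose pulse, 5 in the xylose pulse and none in the glucose control. In 16 of the 22 genes the 3 xylose control arrays lay above all 9 other arrays. The lowest mean was in the glucose control for 22 genes, with all 3 of its arrays below every other array in 17 of them. Shares of all probe sets with these orders were not counted, so the counts of highest and lowest condition have no background beside them. In the glucose phase the pulsed arrays all lay above the controls for 25 genes and all below for 2, where 37.3% and 34.1% of all probe sets did so. In the xylose phase the pulsed arrays all lay below the controls for 21 genes and all above for 5, beside 40.6% and 33.0% of all probe sets. Xylose control arrays all lay above the glucose control arrays for 30 genes and all below for 2, beside 46.1% and 42.6% of all probe sets. Replicates were close, with a median SD of 0.13 over genes and conditions and a highest SD of 0.53, for ATG32 in the glucose control.

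**Figure D3:**
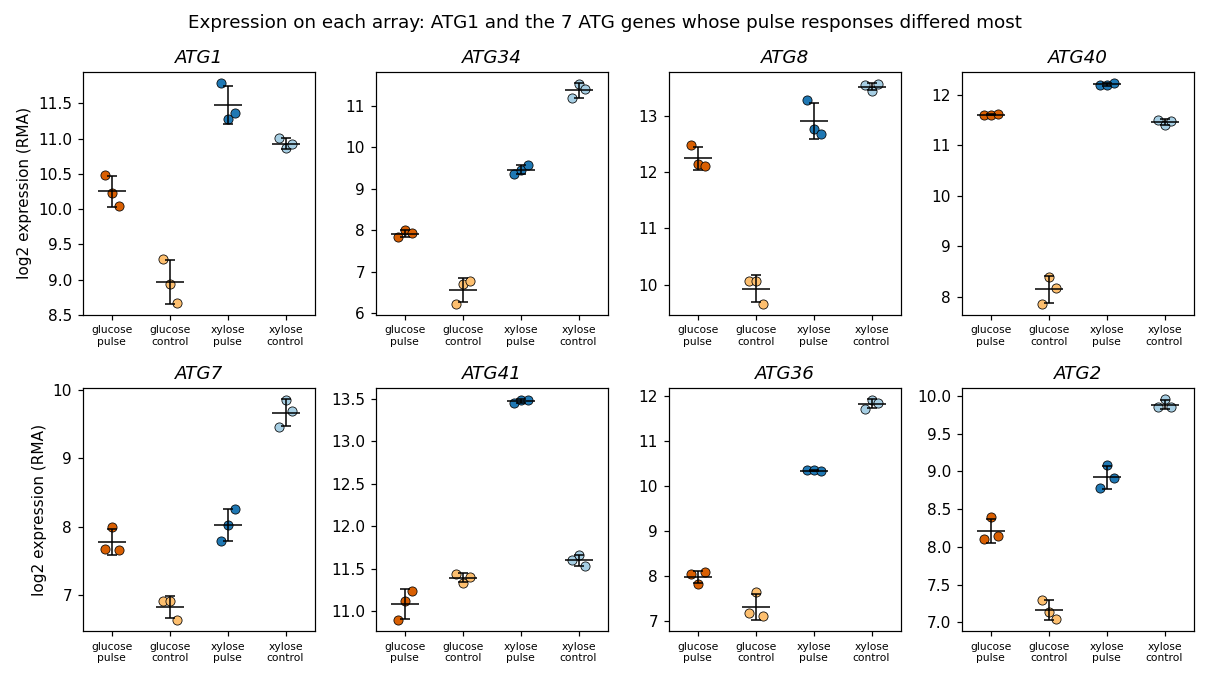
Points are the log2 expression (vertical axis) on each of the 12 arrays for ATG1 and the 7 ATG genes with the largest absolute difference between the pulse responses, with condition along the horizontal axis and the mean and SD of 3 arrays as lines. The glucose control is the lowest group in 7 of the 8 panels, while ATG41 is high in the xylose pulse only, at 13.45 to 13.49. The vertical scales differ between panels and do not start at 0.

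In the kinase complex that starts autophagy, 1 of 6 genes rose after the pulse in the glucose phase and 1 fell in the xylose phase. Over all probe sets, 11.6% rose in the glucose phase and 8.38% fell in the xylose phase. ATG1 (YGL180W) encodes the protein kinase itself. It had a log2 expression of 10.48, 10.23 and 10.04 on the glucose pulse arrays, against 9.29, 8.94 and 8.67 on the glucose control arrays. After the xylose pulse it had 11.79, 11.28 and 11.37, against 11.01, 10.86 and 10.92 in the xylose control. Pulsed arrays lay above control arrays in both phases without overlap. ATG1 rose by 1.28 ± 0.17 (SE, adjusted p = 1.8e-05) on the log2 scale in the glucose phase, and 0.55 (adjusted p = 0.0104) in the xylose phase did not pass. The difference of -0.73 (adjusted p = 0.0136) did not pass either, so the responses of ATG1 were not shown to differ.

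ATG17 (YLR423C) encodes the scaffold on which the starvation form of the complex assembles. It had 7.13, 7.21 and 7.03 after the pulse in the glucose phase, against 7.66, 7.52 and 7.28 in the control. Its arrays in the xylose phase had 8.12, 7.78 and 7.78 after the pulse, against 9.23, 9.15 and 9.21 in the control. It was lower on every pulsed array than on any control array in both phases, and it fell in the xylose phase with a log2 fold change of -1.30 ± 0.11 (SE, adjusted p = 4.8e-07). The glucose phase gave -0.36 (adjusted p = 0.0136). The difference of -0.94 (adjusted p = 1.7e-04) fell short of 2-fold and passed at -1.03 without glucose control replicate 1 and at -1.06 without xylose pulse replicate 1.

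ATG29 (YPL166W) encodes a partner of that scaffold. Its log2 expression was 6.32, 6.49 and 6.05 in the glucose pulse, against 5.52, 5.26 and 5.19 in the glucose control. In the xylose pulse it was 6.88, 6.37 and 6.50, against 7.46, 7.39 and 7.79 in the xylose control. The 4 groups of arrays gave opposite directions, all pulsed arrays above the controls on glucose and all below on xylose. Neither response passed on its own, at 0.97 (adjusted p = 1.2e-04) and -0.96 (adjusted p = 1.2e-04), while their difference did, at -1.93 ± 0.22 (SE, adjusted p = 4.7e-06). The glucose response passed at 1.06 without glucose control replicate 1 and 1.09 without glucose pulse replicate 3, and the xylose response without xylose control replicate 1 or 2 or xylose pulse replicate 1, at -1.0, -1.04 and -1.11. After a second quantile normalization the glucose response was 0.50 (adjusted p = 0.0192) and the xylose response passed at -1.17.

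None of the other 3 members of the complex was called after either pulse. ATG11, the scaffold of selective autophagy, had a mean of 9.32 ± 0.08 in the glucose pulse and 8.36 ± 0.16 in the glucose control (SD, n = 3 each). Its log2 fold change of 0.97 (adjusted p = 7.5e-07) missed the 2-fold limit narrowly and passed at 1.05 without glucose control replicate 2 and at 1.01 without glucose pulse replicate 1. ATG13, the regulatory subunit that TORC1 phosphorylates, had 0.28 in the glucose phase and -0.47 (adjusted p = 2.4e-04) in the xylose phase. ATG31, the third part of the scaffold, had 0.52 (adjusted p = 1.3e-04) and -0.09 (adjusted p = 0.352).

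Among the genes of Atg9 vesicles and membrane supply, 2 of 6 rose in the glucose phase and 1 fell in the xylose phase. The shares of all probe sets that did so were 11.6% and 8.38%. ATG9 (YDL149W) encodes the transmembrane protein of the vesicles that seed the membrane. It had 8.90, 8.67 and 8.44 after the pulse in the glucose phase, against 7.50, 7.46 and 7.32 in the control. On the xylose arrays it had 9.82, 9.53 and 9.34 with the pulse, against 10.22, 10.22 and 10.12 without it. Groups did not overlap in either phase, and the direction was up on glucose and down on xylose. ATG9 rose by 1.24 ± 0.13 (SE, adjusted p = 2.4e-06) in the glucose phase, did not pass in the xylose phase at -0.63 (adjusted p = 8.7e-04), and differed between the phases by -1.87 ± 0.19 (SE, adjusted p = 1.1e-06).

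ATG2 (YNL242W) encodes the lipid transfer protein that feeds the growing membrane. It had 8.10, 8.39 and 8.14 in the glucose pulse, against 7.30, 7.14 and 7.04 in the glucose control. In the xylose pulse it had 8.78, 9.08 and 8.91, against 9.85, 9.96 and 9.85 in the xylose control. Every pulsed array lay above the controls on glucose and below them on xylose. It rose by 1.05 ± 0.11 (SE, adjusted p = 1.6e-06) in the glucose phase, but only just, and fell short of 2-fold at 0.99 without glucose control replicate 3, and at 0.96 both without glucose pulse replicate 2 and after a second quantile normalization. In the xylose phase -0.96 (adjusted p = 3.7e-06) missed the limit, and passed at -1.04 without xylose pulse replicate 2. The difference between the responses was -2.02 ± 0.15 (SE, adjusted p = 7.6e-08).

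ATG18 (YFR021W), which encodes the lipid-binding partner of Atg2, had 8.99, 9.02 and 9.25 in the glucose pulse, against 8.35, 8.57 and 8.60 in the glucose control. Its xylose pulse arrays had 8.20, 8.38 and 8.29, against 9.11, 9.46 and 9.35 on the xylose control arrays, lower on every pulsed array. It fell in the xylose phase, with a log2 change of -1.02 ± 0.11 (SE, adjusted p = 3.7e-06). This call was lost at -0.94 without xylose control replicate 2, at -1.0 without xylose control replicate 3, and at -0.98 without xylose pulse replicate 1 and after a second quantile normalization. The glucose phase gave 0.58 (adjusted p = 4.6e-04) and the difference was -1.60 ± 0.16 (SE, adjusted p = 1.1e-06).

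ATG21 (YPL100W) encodes a related lipid-binding protein that helps to place Atg8. It had 10.63, 10.45 and 10.48 after the pulse in the glucose phase, against 9.72, 9.63 and 9.57 in the control. It had 10.27, 10.02 and 10.10 in the xylose pulse, against 10.71, 10.47 and 10.51 in the xylose control. The groups lay apart in opposite directions, and neither response reached 2-fold, at 0.88 (adjusted p = 3.2e-06) and -0.43 (adjusted p = 0.00128). The difference passed at -1.31 ± 0.14 (SE, adjusted p = 1.7e-06). ATG23 and ATG27, which help to move Atg9, were called in neither phase, with 0.22 and 0.44 in the glucose phase and -0.66 and 0.06 in the xylose phase.

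Both measured subunits of the phosphatidylinositol 3-kinase with an ATG symbol stayed short of the limits after each pulse. ATG14 (YBR128C) encodes the subunit that directs the kinase to the site of autophagosome formation. It had 6.99, 7.29 and 7.01 in the glucose pulse, against 6.34, 6.81 and 6.15 in the glucose control. After the xylose pulse it had 7.87, 8.05 and 7.84, against 8.92, 8.55 and 8.80 in the xylose control. The pulsed arrays were all higher on glucose and all lower on xylose. With 0.67 (adjusted p = 0.00199) and -0.84 (adjusted p = 3.6e-04) neither response was called, and the difference was -1.5 ± 0.22 (SE, adjusted p = 4.2e-05). ATG38, which holds the complex together, had 0.19 and -0.17 with overlapping arrays in both phases.

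The genes of Atg8 and its conjugation all responded differently in the phases, with 4 of 4 lower in the xylose phase than in the glucose phase. Of all probe sets, 19.9% were called lower in this difference. ATG8 (YBL078C) encodes the ubiquitin-like protein that is joined to phosphatidylethanolamine on the growing membrane. It had 12.48, 12.14 and 12.11 after the pulse in the glucose phase, against 10.06, 10.07 and 9.66 in the control. On the xylose arrays it had 13.28, 12.77 and 12.67 with the pulse, against 13.55, 13.44 and 13.56 without it. The glucose control stood well below the other conditions, and the xylose control was the highest. ATG8 rose by 2.31 ± 0.16 (SE, adjusted p = 4.9e-08) in the glucose phase, and the xylose phase gave -0.61 (adjusted p = 0.00445), short of 2-fold. The difference was -2.92 ± 0.23 (SE, adjusted p = 1.2e-07).

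ATG4 (YNL223W) encodes the cysteine protease that trims Atg8 and later frees it from the membrane. It had 6.36, 6.50 and 6.31 in the glucose pulse, against 5.45, 5.66 and 5.60 in the glucose control. In the xylose pulse it had 8.70, 8.47 and 8.28, against 9.41, 9.72 and 9.49 in the xylose control. Groups did not overlap. ATG4 fell in the xylose phase, with a log2 change of -1.06 ± 0.12 (SE, adjusted p = 4.1e-06), a call lost at -0.97 without xylose control replicate 2 and at -0.96 without xylose pulse replicate 3. In the glucose phase 0.82 (adjusted p = 3.8e-05) did not reach 2-fold and was 0.47 after a second quantile normalization, and the difference was -1.88 ± 0.17 (SE, adjusted p = 3.9e-07).

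ATG7 (YHR171W) encodes the activating enzyme that serves both Atg8 and Atg12. Its arrays had 7.67, 7.99 and 7.65 after the pulse in the glucose phase, against 6.91, 6.91 and 6.63 in the control. They had 7.79, 8.02 and 8.25 after the pulse in the xylose phase, against 9.46, 9.85 and 9.7 in the control. The 3 pulsed xylose arrays lay more than 1 unit below every xylose control array. ATG7 fell in the xylose phase, with a log2 change of -1.65 ± 0.14 (SE, adjusted p = 4.3e-07) and differed between the phases by -2.60 ± 0.20 (SE, adjusted p = 1.2e-07). The glucose phase gave 0.95 (adjusted p = 6.1e-05), and 1.00, 1.00 and 1.01, past the limit, without glucose control replicate 2, glucose pulse replicate 1 and glucose pulse replicate 3.

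ATG3 (YNR007C) encodes the conjugating enzyme that passes Atg8 to the lipid. It had 8.28, 8.54 and 8.49 in the glucose pulse, against 6.73, 6.83 and 6.81 in the glucose control. Its xylose pulse arrays had 10.55, 10.78 and 10.67, against 10.67, 10.95 and 10.93 on the xylose control arrays, and these arrays overlapped. The gene rose in the glucose phase by 1.64 ± 0.10 (SE, adjusted p = 1.4e-08), did not pass in the xylose phase at -0.19 (adjusted p = 0.117), and the difference was -1.83 ± 0.14 (SE, adjusted p = 1.2e-07).

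In the Atg12 system, which joins Atg12 to Atg5 and thereby promotes the lipid conjugation of Atg8, 1 of 4 genes rose in the glucose phase and none was called in the xylose phase. Among all probe sets, 11.6% rose in the glucose phase and 20.2% were called in the xylose phase. ATG5 (YPL149W) encodes the protein to which Atg12 is attached. It had 11.31, 11.73 and 11.58 in the glucose pulse, against 9.48, 9.82 and 9.95 in the glucose control. On xylose it had 10.26, 10.28 and 10.49 after the pulse, against 10.21, 10.15 and 10.28 in the control. The glucose pulse arrays were the highest of the 12, and the xylose groups overlapped. ATG5 rose by 1.79 ± 0.13 (SE, adjusted p = 7.3e-08) in the glucose phase, with 0.13 (adjusted p = 0.396) in the xylose phase and a difference of -1.66 ± 0.19 (SE, adjusted p = 3.4e-06).

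ATG12 (YBR217W) itself had 8.70, 8.72 and 8.68 after the pulse in the glucose phase, against 8.04, 8.39 and 8.11 in the control. After the xylose pulse it had 8.40, 8.28 and 8.30, against 8.92, 8.94 and 8.88 in the xylose control. Both responses were under 2-fold and opposite in sign, at 0.52 (adjusted p = 2.2e-04) and -0.58 (adjusted p = 8.1e-05), and the difference was -1.10 ± 0.13 (SE, adjusted p = 5.2e-06). ATG16 (YMR159C), whose product binds the Atg12 and Atg5 conjugate, was dim on every array, with 4.17, 4.27 and 4.0 in the glucose pulse, against 3.69, 3.36 and 3.28 in the glucose control. In the xylose pulse it had 3.59, 3.83 and 3.73, against 4.20, 4.15 and 4.28 in the xylose control. Its difference of -1.19 ± 0.16 (SE, adjusted p = 1.9e-05) shrank to -0.67 and was lost after a second quantile normalization. ATG10, the conjugating enzyme for Atg12, had 0.95 (adjusted p = 3.8e-05) in the glucose phase and 0.89 (adjusted p = 7.0e-05) in the xylose phase, both just under 2-fold. Its glucose response passed at 1.02 without glucose control replicate 2 or without glucose pulse replicate 1, and its xylose response at 1.02 without xylose control replicate 1. The difference of -0.06 was the second smallest in size among the 34 genes.

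Genes of cargo receptors and selective autophagy held the largest increase of the 34 genes in the glucose phase and the largest decrease in the xylose phase. Of 8 genes, 3 were higher after the pulse in the glucose phase and 2 lower in the xylose phase, beside 11.6% and 8.38% of all probe sets. ATG40 (YOR152C) encodes a receptor for the endoplasmic reticulum. It had 11.59, 11.60 and 11.62 in the glucose pulse, against 7.86, 8.39 and 8.18 in the glucose control. On the xylose arrays it had 12.19, 12.18 and 12.23 with the pulse, against 11.50, 11.39 and 11.47 without it. Only the glucose control arrays were low, and the other 9 arrays lay between 11.39 and 12.23. ATG40 rose by 3.46 ± 0.11 (SE, adjusted p = 3.9e-11) in the glucose phase, the largest of the 34 responses. The xylose phase gave 0.75 (adjusted p = 4.7e-05), under 2-fold, and the difference was -2.71 ± 0.16 (SE, adjusted p = 7.1e-09).

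ATG39 (YLR312C) encodes the receptor for the nuclear envelope and perinuclear endoplasmic reticulum. It had 5.16, 5.72 and 5.35 in the glucose pulse, against 3.65, 3.56 and 3.53 in the glucose control. Its xylose pulse arrays had 11.48, 11.47 and 11.40, against 11.51, 11.28 and 11.30 on the xylose control arrays, with overlap. Both glucose groups lay below the lower quartile of every array and both xylose groups far above it. It rose by 1.83 ± 0.12 (SE, adjusted p = 3.3e-08) in the glucose phase, while the xylose phase gave 0.08 (adjusted p = 0.569). The difference was -1.75 ± 0.17 (SE, adjusted p = 1.2e-06). A second quantile normalization brought the glucose response to 1.04, still called, and the difference to -0.99, just short of 2-fold.

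ATG34 (YOL083W) encodes a receptor for alpha-mannosidase that acts in starved cells. It had 7.83, 8.01 and 7.93 after the pulse in the glucose phase, against 6.23, 6.70 and 6.77 in the control. After the xylose pulse it had 9.36, 9.45 and 9.57, against 11.18, 11.53 and 11.42 in the xylose control. ATG34 was the only 1 of the 34 genes called in both phases, and its directions were opposite. It rose by 1.36 ± 0.14 (SE, adjusted p = 1.4e-06) in the glucose phase and fell in the xylose phase, with a log2 change of -1.91 ± 0.14 (SE, adjusted p = 6.4e-08). The difference of -3.27 ± 0.19 (SE, adjusted p = 8.7e-09) was the largest of the 34.

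ATG19 (YOL082W), whose gene is the neighbour of ATG34, encodes the related receptor of the cytoplasm-to-vacuole (Cvt) route that carries aminopeptidase I in growing cells. It had 11.13, 11.05 and 11.12 in the glucose pulse, against 10.64, 10.56 and 10.48 in the glucose control. In the xylose pulse it had 10.36, 10.19 and 10.21, against 11.13, 10.98 and 10.93 in the xylose control. The signs matched those of ATG34, but with 0.54 (adjusted p = 7.9e-05) and -0.76 (adjusted p = 3.6e-06) neither response reached 2-fold. The difference of -1.30 ± 0.12 (SE, adjusted p = 5.0e-07) passed.

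ATG36 (YJL185C) encodes the receptor for peroxisomes. Its log2 expression was 8.04, 7.82 and 8.08 in the glucose pulse, against 7.17, 7.65 and 7.12 in the glucose control. On the xylose arrays it had 10.35, 10.35 and 10.32 with the pulse, against 11.71, 11.91 and 11.85 without it. It fell in the xylose phase, with a log2 change of -1.48 ± 0.13 (SE, adjusted p = 3.6e-07), and even then stayed above every glucose array. The glucose phase gave 0.67 (adjusted p = 4.3e-04), and the difference was -2.15 ± 0.18 (SE, adjusted p = 2.3e-07).

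ATG32 (YIL146C) encodes the receptor for mitochondria. It had 7.07, 7.11 and 7.03 in the glucose pulse, against 6.80, 7.69 and 6.74 in the glucose control, where replicate 2 stood above the others. Its xylose pulse arrays had 9.85, 9.94 and 10.39, against 10.82, 11.06 and 11.24 on the xylose control arrays. Glucose groups overlapped and the xylose groups did not. The log2 fold change was -0.01 in the glucose phase and -0.99 (adjusted p = 0.00131) in the xylose phase, and the xylose value passed at -1.09 without xylose control replicate 1 and at -1.15 without xylose pulse replicate 3. The difference of -0.98 (adjusted p = 0.012) passed at -1.28 without glucose control replicate 2 and at -1.14 without xylose pulse replicate 3.

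ATG33, which encodes a mitochondrial protein needed for the breakdown of mitochondria, had a mean of 9.84 ± 0.17 in the xylose pulse and 10.77 ± 0.19 in the xylose control (SD, n = 3 each). Its log2 fold change of -0.93 (adjusted p = 5.3e-05) passed at -1.03 without xylose control replicate 1 and at -1.01 without xylose pulse replicate 3. In the glucose phase it had -0.08 (adjusted p = 0.638). ATG20, a sorting nexin gene, had overlapping arrays in both phases, with 0.45 and -0.22.

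Of the genes that act inside the vacuole, ATG15 (YCR068W) encodes the lipase that opens autophagic bodies. It had 4.01, 4.02 and 3.85 in the glucose pulse, against 3.52, 3.85 and 3.72 in the glucose control. After the xylose pulse it had 6.09, 6.15 and 6.25, against 7.48, 7.26 and 7.32 in the xylose control. All 12 values lay below the lower quartile of the arrays, and the 6 glucose values overlapped. ATG15 fell in the xylose phase, with a log2 change of -1.19 ± 0.10 (SE, adjusted p = 3.4e-07), and its difference between the phases was -1.45 ± 0.14 (SE, adjusted p = 1.0e-06). ATG22, a transporter gene linked to the release of amino acids from the vacuole, had 0.31 (adjusted p = 0.00691) and -0.10 (adjusted p = 0.35) and was not called.

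ATG41 (YPL250C), long known as ICY2, encodes a protein that binds Atg9 and is needed for autophagosome formation in starved cells. It had 10.90, 11.12 and 11.24 in the glucose pulse, against 11.44, 11.34 and 11.41 in the glucose control. On the xylose arrays it had 13.45, 13.48 and 13.49 with the pulse, against 11.60, 11.66 and 11.54 without it. Only the pulsed xylose arrays stood out, well above the other 9. ATG41 rose in the xylose phase by 1.87 ± 0.09 (SE, adjusted p = 1.7e-09), the only increase called there, and had -0.31 (adjusted p = 0.00722) in the glucose phase. With 2.19 ± 0.13 (SE, adjusted p = 7.6e-09) it was the single gene whose difference between the responses was positive. ATG26, a sterol glucosyltransferase gene, had -0.15 in the glucose phase and -0.17 in the xylose phase, and neither was called.

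Between the unpulsed phases, the 3 largest differences were those of receptor genes. As a group, the receptor and selective genes had a median of 3.64 (0.45 to 7.79), beside 3.78 (2.85 to 4.06) for the Atg8 system. The xylose control stood above the glucose control by a log2 fold change of 7.79 ± 0.12 (SE, adjusted p = 9.4e-15) for ATG39, 4.81 for ATG34 and 4.51 for ATG36, all receptor genes. ATG3 followed with 4.06 ± 0.10 (SE, adjusted p = 4.0e-13), ATG4 with 3.97, ATG32 with 3.96, ATG15 with 3.65 and ATG8 with 3.59 ± 0.16 (SE, adjusted p = 1.1e-10). Of these 8 genes all but ATG8 had their glucose control values below the lower quartile of every array, so their sizes are only approximate. By role, 5 of 6 genes of the Atg1 complex, 4 of 4 of the Atg8 system and 7 of 8 receptor and selective genes were higher, where 27.8% of all probe sets were. In the Atg12 system none of 4 was higher. ATG10 was lower at -1.0 ± 0.14 (SE, adjusted p = 1.1e-05), a call lost without glucose control replicate 2 (-0.93), xylose control replicate 2 (-0.97) or xylose control replicate 3 (-0.89), and after a second quantile normalization (-0.84).

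Within the kinase complex ATG11 had 2.35 between the controls, ATG29 2.22, ATG1 1.96, ATG17 1.71 and ATG31 1.13, while ATG13 had 0.28 and was not called. In membrane supply, ATG9 and ATG2 were higher in the xylose control at 2.76 and 2.73. ATG18, ATG21 and ATG23 had 0.80, 0.92 and 0.45, and ATG27 had -0.41, all short of 2-fold. ATG14 was higher at 2.32 and ATG38 was not called at -0.16. ATG40, ATG33, ATG20 and ATG26 were higher at 3.31, 1.89, 1.68 and 1.60. The remaining genes had 0.46 (ATG5), 0.73 (ATG12), 0.76 (ATG16), 2.85 (ATG7, higher), 0.45 (ATG19), 0.12 (ATG22) and 0.20 (ATG41).

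**Figure D4:**
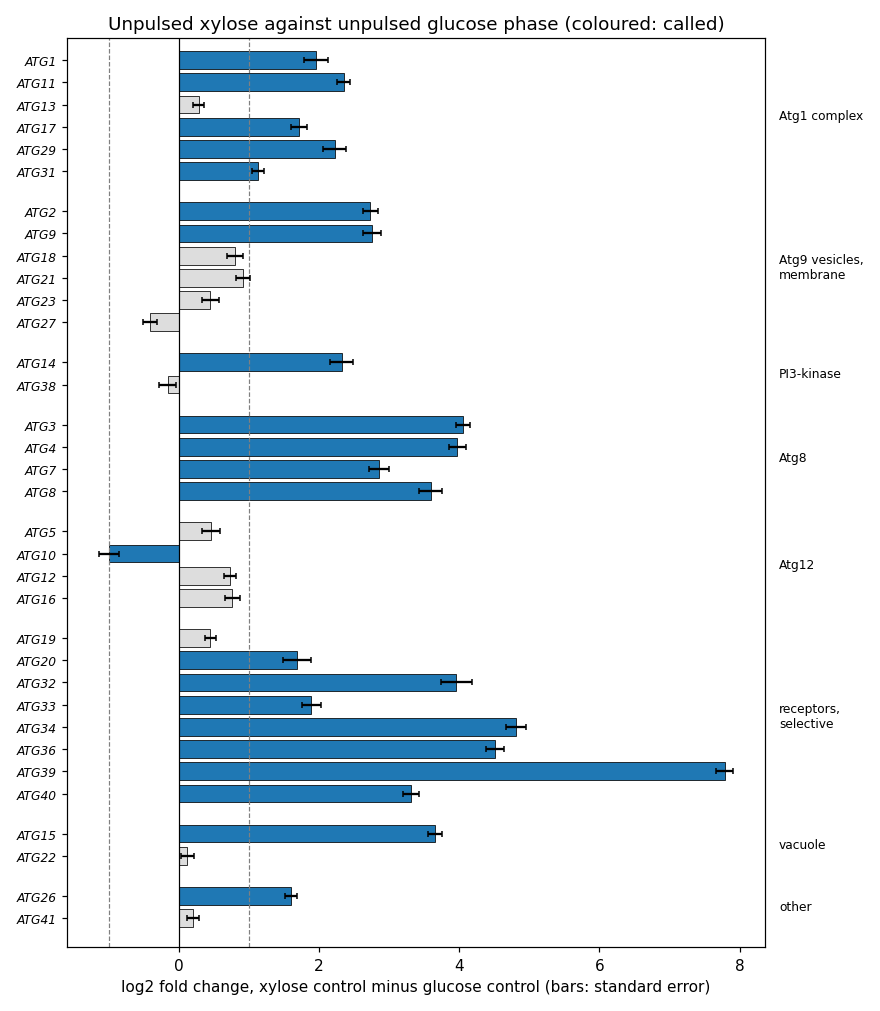
Bars give the log2 fold change of xylose control minus glucose control (horizontal axis) for the 34 ATG genes in rows by role, with standard errors, coloured where called. Nearly all bars point right, ATG39 reaches 7.79, the genes of the Atg12 system stay between -1.0 and 0.76, and ATG10 is the only gene called lower.

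Counted in either direction, 9 ATG genes were called in the glucose phase, 8 in the xylose phase, 20 in the difference and 22 between the controls, where 21.2%, 20.2%, 38.9% and 54.9% of all probe sets were. Leaving out the dimmest 25% of probe sets kept 24 ATG genes among 4116 probe sets. Of these 24 genes, 8 were then called in the glucose phase (8 higher, none lower), 13 in the difference (1 higher, 12 lower) and 14 between the controls (all higher), where 20.1%, 37.1% and 53.0% of the probe sets kept were. In the xylose phase 4 of the 24 were called (1 higher, 3 lower), where 16.6% of the probe sets kept were, which is a share near the background.

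Other genes of autophagy were taken from lists by function. Of 9 partners under other symbols, 1 rose after the pulse in the glucose phase and 1 fell in the xylose phase, with medians of 0.07 and -0.31. These counts are near the shares of all probe sets, 11.6% and 8.38%. SNX4, the sorting nexin also known as ATG24, rose in the glucose phase with a log2 fold change of 1.31 ± 0.19 (SE, adjusted p = 4.0e-05). VPS34, the catalytic phosphatidylinositol 3-kinase, fell in the xylose phase with -1.39 ± 0.12 (SE, adjusted p = 3.4e-07). VPS30, also known as ATG6, had -0.12 and -0.71 (adjusted p = 4.0e-04) and was called in neither. VPS15, the regulatory kinase of Vps34, was lower in the xylose control than in the glucose control, at -2.01 ± 0.10 (SE, adjusted p = 1.9e-10). Between the controls SNX4 was called higher at 1.25 and VAC8 lower at -1.03.

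Of 13 genes for the fusion of the autophagosome with the vacuole, none was called in the glucose phase and 3 fell in the xylose phase, with medians of 0.11 and -0.49. The 3 were VPS41 at -1.99 ± 0.13 (SE, adjusted p = 2.7e-08), PEP5 at -1.34 and PEP3 at -1.22, all of which encode subunits of the HOPS tethering complex. Across all probe sets, 21.2% were called in the glucose phase and 8.38% fell in the xylose phase. Between the controls none of the 13 was higher and 3 were lower (PEP5 at -1.73, PEP3 at -1.28 and VAM6 at -1.03), where 27.8% and 27.2% of all probe sets were.

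Among 5 genes of Cvt cargo and vacuolar proteases, 2 rose in the glucose phase, 1 fell in the xylose phase and 4 responded lower in the xylose phase than in the glucose phase. The shares of all probe sets were 11.6%, 8.38% and 19.9%. PRB1, the vacuolar proteinase B, rose with 1.63 ± 0.09 (SE, adjusted p = 3.7e-09), and AMS1, the alpha-mannosidase that Atg19 and Atg34 carry, with 1.22 ± 0.08 (SE, adjusted p = 2.9e-08). APE1, the aminopeptidase I that gives the Cvt route its cargo, fell in the xylose phase with -1.03 ± 0.08 (SE, adjusted p = 2.1e-07). It had 0.97 in the glucose phase, just short of 2-fold, and a difference of -2.0 (adjusted p = 8.7e-09).

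Among 15 genes of TORC1 and kinases upstream of autophagy, 1 was higher in the glucose phase, 1 was higher and 1 lower in the xylose phase, and the medians were 0.08 and 0.01. The counts do not exceed the shares of all probe sets, which were 11.6%, 11.8% and 8.38%. TAP42, a phosphatase partner under TORC1, rose in the glucose phase with 1.04 ± 0.10 (SE, adjusted p = 8.2e-07). In the xylose phase TPK3, a catalytic subunit of protein kinase A, rose with 2.85 ± 0.10 (SE, adjusted p = 9.2e-11), and TPK2, another one, fell with -1.26 ± 0.08 (SE, adjusted p = 2.3e-08).

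Of 12 transcription regulators linked to ATG genes, 2 rose and 1 fell in the glucose phase, and 1 fell in the xylose phase. These counts are near the shares of all probe sets, 11.6%, 9.55% and 8.38%. UME6, a repressor of ATG8, rose in the glucose phase with 1.16 ± 0.14 (SE, adjusted p = 8.7e-06), and PHO23, which encodes a subunit of the Rpd3 deacetylase complex, with 1.43 ± 0.10 (SE, adjusted p = 4.7e-08). GAT1, an activator of nitrogen-starvation genes, fell there with -1.52 ± 0.10 (SE, adjusted p = 2.2e-08). MSN4, an activator of stress genes, fell in the xylose phase with -1.10 ± 0.08 (SE, adjusted p = 5.1e-08). RPH1, a repressor of several ATG genes, had 0.71 (adjusted p = 5.9e-04) and -0.37 (adjusted p = 0.0307), neither called, and stood higher in the xylose control than in the glucose control with 2.53 ± 0.14 (SE, adjusted p = 9.4e-10). MSN4 and PHO23 were also called higher between the controls, at 2.72 and 1.7.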

How the data were processed

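The deposited values are log2 expression per probe set, which the authors made from scanned Affymetrix Yeast Genome 2.0 arrays in R 2.15.3 with RMA (background correction, quantile normalization, median polish). The genome build behind the platform annotation is not given in the sources used here. The table holds 5705 probe sets. The 5489 paired with 1 gene symbol were tested with limma 3.58.1 in R 4.3.3 on the values as deposited, with 1 mean per condition over all 12 arrays, 8 residual and 4.53 prior degrees of freedom, and Benjamini-Hochberg adjustment. Thresholds followed the methods of the study. Groups came from the sample labels. Where a gene had several probe sets, the one with the highest mean over all arrays was kept, and each of the 34 ATG genes had 1. Values on every array are given for the 23 members called in a pulse comparison or in the difference, or among the 8 with the largest difference between the controls (ATG1 and ATG8 in any case), and means or fold changes for the other 11. Among the other genes of the pathway, every member called in a pulse comparison was named. In the other comparisons only some of the called members were named. The members and gene lists were chosen with earlier results of these data known. The script was tested on simulated data. Within each phase, deviations from the condition means correlated between pulse and control arrays of the same replicate number (glucose 0.474, 0.381 and 0.145, xylose 0.569, 0.299 and 0.305). Pulse replicate 3 correlated more with control replicate 2 in each phase (0.285 and 0.328). Arrays of the same number also correlated between the xylose and glucose controls (0.419, 0.237 and 0.069). The correlations therefore cannot show which arrays share a bioreactor. The main fit did not pair the samples, and the replicate block was an alternative. Alternatives covered the replicate block, the arrays in the fit, dim probe sets, normalization, the variance prior, thresholds and each array left out. Promoter and protein sequences were not used here.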

Additional observations from a re-analysis of the deposited data

Results flagged for a closer look

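The pulse response in the xylose phase minus that in the glucose phase passed limma's test of the difference itself for 20 ATG genes, where 38.9% of all probe sets did, and these 20 are listed because the response to 1 treatment differed between the phases. The log2 differences were -2.92 for ATG8, -2.60 for ATG7, -1.88 for ATG4 and -1.83 for ATG3, the genes of Atg8 and its conjugation. In the Atg12 system they were -1.66 for ATG5, -1.19 for ATG16 and -1.10 for ATG12. Membrane supply gave -2.02 for ATG2, -1.87 for ATG9, -1.6 for ATG18 and -1.31 for ATG21. ATG29 of the kinase complex had -1.93, and ATG14 of the lipid kinase had -1.5. Receptor genes had -3.27 (ATG34), -2.71 (ATG40), -2.15 (ATG36), -1.75 (ATG39) and -1.30 (ATG19), and the vacuolar lipase gene ATG15 had -1.45. ATG41 was the only positive one, at 2.19.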

How the results depend on the processing

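Of 59 called values of ATG genes, 53 kept their call and direction under every alternative that gave them a value, 6 lost the call under at least 1, as given with each gene, and none reversed. Of the 24 alternatives, the filter on dim probe sets and the fit on the compared arrays alone gave a value for 39 of the 59, since the filter removes dim members and the difference uses all arrays in any case, and the others for all 59. With the replicate number as a replicate block, crossed or within each phase, the counts of called genes stayed at 9 and 8 after the pulses, 20 in the difference and 22 between the controls, and the block changed no other call. Dropping the limit on the fold change gave 26 genes called in the glucose phase and 23 in the xylose phase, where 57.7% and 60.8% of all probe sets passed. Leaving out dim probe sets gave 4 called genes in the xylose phase, 13 in the difference and 14 between the controls, with 24 members tested instead of 34, where 16.6%, 37.1% and 53.0% of the 4116 probe sets kept were called, and medians of 0.56, -0.33, -1.04 and 1.64 in the 4 comparisons. A second quantile normalization gave medians of 0.51 in the glucose phase and -1.04 in the difference. Leaving out 1 array at a time gave 8 to 12 called genes in the glucose phase, 7 to 12 in the xylose phase, 20 to 21 in the difference and 21 to 22 between the controls. Shares of all probe sets were not counted for the fits with 1 array left out. Signs turned only for values that were not called. These were ATG15 in the glucose phase (-0.31) and ATG16 between the controls (-0.19) after a second quantile normalization, and, with replicates 2 and 3 alone (a choice made after seeing the data), ATG33 in the glucose phase (0.06), ATG10 in the difference (0.10) and ATG26 in the difference (0.00). With 1 array left out, the glucose response ranged over -0.18 to 0.30 for ATG32 and -0.2 to 0.06 for ATG33, and the difference over -0.18 to 0.08 for ATG10 and -0.06 to 0.04 for ATG26. The cause of these changes was not tested.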
